A study of Mus musculus with 6 samples.

Results

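The genes described here carry amino acids across membranes in brown adipose tissue (BAT), and were compared between wild-type (WT) mice and mice with a global knockout (KO) of miR-22. They were chosen by name, as every mouse gene whose symbol starts with Slc1a, Slc3a, Slc7a, Slc36a, Slc38a or Slc43a. The reference holds 45 such genes, of which 44 had a probe on the array, out of 23462 genes with a probe, and 28 could be tested, out of 14711 genes tested. *Slc7a6os*, a protein-coding neighbour of *Slc7a6*, and the non-coding *Slc36a1os* and *Slc36a3os* belong to the set by name alone and are not known as carriers, and *Slc36a3os* was the gene without a probe. BAT was taken from 3 WT mice and 3 miR-22 KO mice, all males of 8 weeks, and the RNA of each mouse was hybridized with a single dye to an Agilent gene expression array. The KO mice lack miR-22 in every tissue and not only in fat. The labels name BAT as the tissue and no cell type, and the deposited description mentions a separation step before the TRIzol without explaining it, so it is not certain that whole tissue was used. In such bulk RNA, fewer cells of a type and less RNA per cell cannot be told apart. Each value is the log2 of the background-subtracted intensity of a spot, minus the log2 of the 75th percentile of its array, so that 0 stands for a signal at that percentile. Values are given in the order WT 1, 2, 3 and KO 1, 2, 3, and differences are KO minus WT on the log2 scale.

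Amino acids are charged or polar and need carriers to enter cells. The Slc7a light chains LAT1, LAT2, y+LAT1, y+LAT2, asc-1 and xCT reach the cell surface bound to the heavy chain Slc3a2 (4F2hc, CD98), and b0,+AT bound to the heavy chain Slc3a1 (rBAT). The Slc38a carriers take up glutamine and other small neutral amino acids together with sodium, the Slc1a carriers take up glutamate or exchange neutral amino acids, and the Slc36a carriers move small amino acids together with protons. Amino acids that have entered are sensed at the lysosome, where they lead to activation of the growth kinase complex mTORC1. When amino acids are short, the kinase Gcn2 and the transcription factor Atf4 raise the transcription of several carriers.

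The 2 mature RNAs of the deleted gene are shown because the KO mice were bred to lack them. Capitals mark the seed, bases 2 to 8, through which a miRNA pairs with its targets. The sequences are those of RefSeq on GRCm38.p6, and both lie on the plus strand, at chr11:75463772-75463793 for the first and chr11:75463734-75463755 for the other. The array carried no probe matched to either. The probe for the host transcript, *Mir22hg*, gave 1.20, 1.69 and 1.22 in WT mice and 2.02, 2.11 and 2.23 in KO mice, but where it lies relative to the deleted part is not given in the sources used here, so it does not check the labels.
mmu-miR-22-3p: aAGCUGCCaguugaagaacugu
mmu-miR-22-5p: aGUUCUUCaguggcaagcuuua

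The promoters of the carriers were searched on both strands for TGATGNAA, the core of the element that Atf4 binds with its partners, over 250 bases before and 50 bases after each annotated start. RefSeq listed 45 promoters for 34 of the genes. The letters were found in 4 of the 45 promoters (8.89%), against 1304 of 32851 promoters of all genes (3.97%). This count holds *Slc7a7* at more than 1 start. By gene they were found in 3 of 34 (8.82%), *Slc1a4*, *Slc7a7* and *Slc7a11*, against 1219 of 27025 genes (4.51%). These stretches are shown because *Slc7a7* is among the genes called below, with 1 match per gene in capitals. On GRCm38.p6 they lie at chr11:20332701-20332726 on the plus strand (*Slc1a4*), at chr3:50443663-50443688 on the minus strand (*Slc7a11*), and at chr14:54418069-54418094 on the minus strand (*Slc7a7*). The matches start 4, 66 and 141 bases before an annotated start of their gene. *Slc7a11* had a further match 47 bases before its start. *Slc7a7* had a further match, TGATGCAA, that starts 1 base before an annotated start and 243 bases before another. A match is a description of the letters and not a site shown to be bound.
Slc1a4: ggctggagaTGATGCAAcgcaggagg
Slc7a11: tcatgtggcTGATGCAAacctggaga
Slc7a7: gcttgggctTGATGAAAggttcactg

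The share of non-control spots above background was 55.8 to 66.5%, lowest on KO 1, and none was saturated. As outliers, the scanner software marked 17.1% of the spots of WT 3 and 15.1% of those of KO 1, against 4.87 to 6.12% on the other arrays, and marked spots were left out of the tests. All 6 arrays lay on 1 slide, with WT 1 and WT 2 in one row and WT 3 with the KO mice in the other. A fit with slide row as a block therefore compares WT 3, 1 mouse and the array with most marked spots, with the 3 KO mice, and assumes that this mouse varies like the others. All 10 brown adipocyte markers were above background on all 6 arrays, among them *Ucp1*, the uncoupling protein. The mean over 20 skeletal muscle genes was 2.66, 1.95 and -3.89 in WT mice and 0.19, 3.62 and 1.83 in KO mice. It was the list that differed most between arrays, with WT 3 far below the others and KO 2 highest, and none of its 17 tested genes was called. Of the other lists, 1 of 5 tested brown adipocyte genes was lower in KO mice and 1 of 6 white adipocyte genes, 1 of 8 macrophage genes, 1 of 5 erythroid genes and 1 of 4 lymphocyte genes were higher. Among the nerve and Schwann cell genes 2 of 7 were lower, and none of the 3 pan adipocyte or 6 endothelial genes was called. These counts, by limma at an unadjusted p under 0.05, stand against 8.82% of all genes lower and 10.0% higher. Only 5 of the 10 brown adipocyte genes and 3 of the 6 pan adipocyte genes could be tested.

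Detection came first, since a gene below background has no measured difference. At least 1 probe was well above background on all 6 arrays for 24 of the 44 genes (54.5%), on some arrays for 12, and on none for 8 (18.2%), against 60.3% of all genes on all 6 arrays and 25.4% on none. By subfamily, all 6 arrays detected 4 of 7 Slc1a genes, both Slc3a genes, 7 of 16 Slc7a genes, 2 of 5 Slc36a genes, 6 of 11 Slc38a genes and all 3 Slc43a genes. The genes not above background on any array were *Slc1a2* and *Slc1a7*, glutamate carriers known from brain and retina, *Slc36a1os*, *Slc36a3*, *Slc38a5*, *Slc7a9*, which is known from kidney and gut, *Slc7a12* and *Slc7a15*. *Slc7a5*, which encodes the leucine carrier LAT1, and *Slc7a11*, which encodes the cystine and glutamate exchanger xCT, were each above background on 1 KO array and on no WT array. Neither gave a fold that the background allows to be stated. *Slc7a3*, *Slc7a13* and *Slc38a11* were above background on 2 arrays each. The probes for *Slc3a2*, the heavy chain of *Slc7a5* and *Slc7a11*, were above background on every array.

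**Figure D1:**
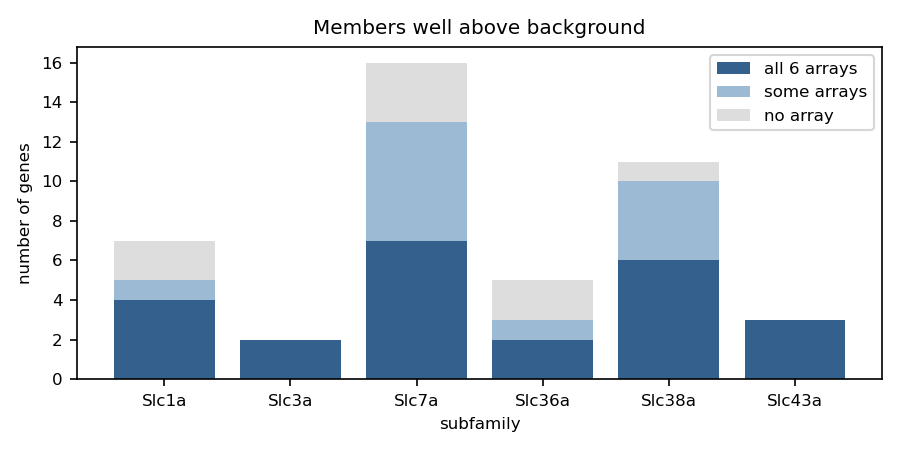
Number of genes (vertical axis) of each subfamily (horizontal axis) with at least 1 probe well above background on all 6 arrays, on some arrays, or on no array. All genes of Slc3a and Slc43a are in the first class, against 7 of 16 Slc7a genes.

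In 11 genes the probe lay above the 75th percentile of its array on all 6 arrays. They were *Slc3a2*, *Slc36a2*, *Slc1a3*, *Slc1a4*, *Slc1a5*, *Slc38a2*, *Slc38a10*, *Slc43a3*, *Slc7a1*, *Slc7a6* and *Slc7a6os*, and 8 of them could be tested. Among the 16 genes that had a probe and were not tested, 13 were too dim and 3 (*Slc1a5*, *Slc36a2* and *Slc7a6os*) were bright but had marked spots. Of the 28 tested genes, 21 were above background on all 6 arrays and 7 on 3 to 5 arrays. The probe of a gene that is high in one group can pass the filter through that group alone, so the counts below describe the tested genes and not all 45.

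Of the 28 tested genes, 3 (10.7%) were downregulated and 4 (14.3%) upregulated in KO mice by limma at an unadjusted p under 0.05. Over all 14711 genes these shares were 8.82% and 10.0%, so neither share of the carriers stood far from the background. The downregulated genes were *Slc38a10*, *Slc38a2* and *Slc1a3*, and the upregulated genes *Slc7a8*, *Slc38a1*, *Slc43a2* and *Slc7a7*. After adjustment over all genes (Benjamini-Hochberg), *Slc7a8* alone passed, against 0.143% of all genes higher and 0.0408% lower. Among the 25 genes with 3 unmarked values in each group, the KO values lay entirely below the WT values in 2 and entirely above in 5, against 14.7% and 14.2% of 11576 genes. The median log2 difference of the 28 genes was 0.10, against -0.03 over all genes, and 11 of them (39.3%) had a KO mean below the WT mean, against 52.9% of all genes. Without KO 1, 7 of 28 genes were upregulated in place of 4, against 9.69% of all genes in that fit. With slide row as a block, and so with WT 3 as the only WT mouse compared, 1 of 26 genes was downregulated and 1 upregulated, against 2.41% and 6.29% of all genes.

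**Figure D2:**
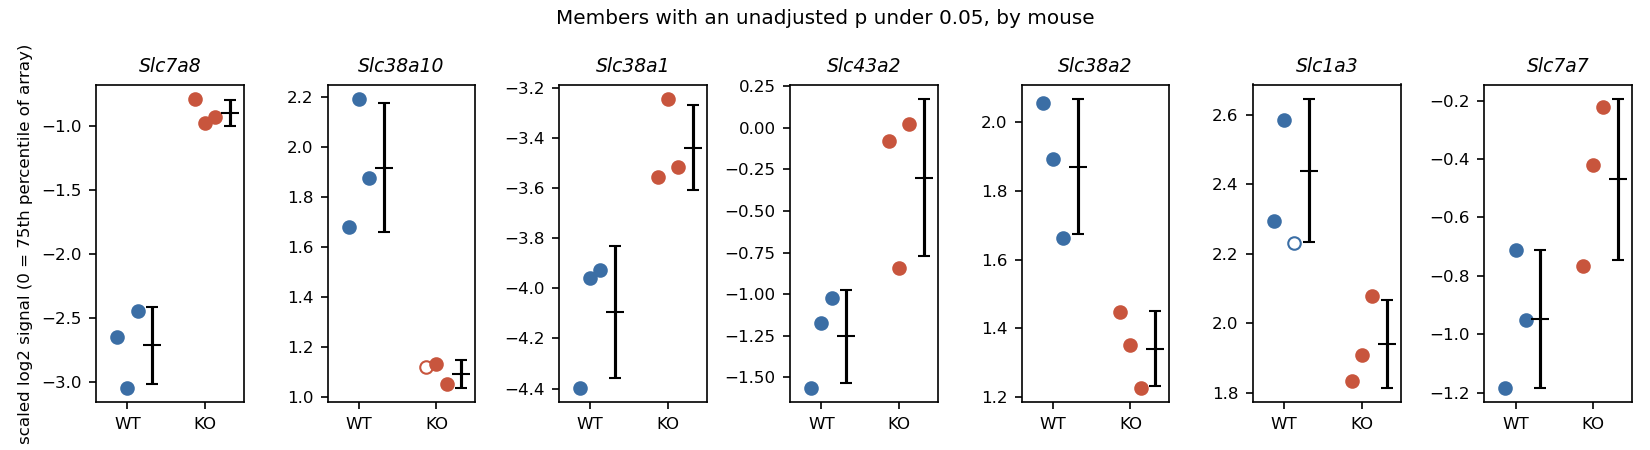
Scaled log2 signal (vertical axis, 0 at the 75th percentile of the array, scale differs between panels) of the 7 genes with an unadjusted p under 0.05, by mouse, with the mean and SD of the unmarked values beside each group. Open circles are marked spots, which were left out; the 2 groups are furthest apart for *Slc7a8*, and overlap only for *Slc7a7*.

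The heavy chains showed no called difference. *Slc3a2*, the partner of most light chains, had a signal of 5.75, 6.40 and 5.73 in WT mice and 5.43, 5.44 and 6.18 in KO mice. The groups overlapped, and the log2 difference was -0.28 (standard error, SE, 0.28, limma unadjusted p = 0.357), which became 0.09 with quantile normalization and with the processed values of the authors. Its other probe gave -0.18. *Slc3a1*, the partner of b0,+AT in kidney, had -3.65, -3.53 and -3.48 in WT mice and -3.89, -3.84 and -3.81 in KO mice. All 3 KO mice lay below all 3 WT mice, with a difference of -0.29 (SE 0.13, unadjusted p = 0.0560), and with quantile normalization the difference was -0.48 (unadjusted p = 0.00406).

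Among the light chains of *Slc3a2*, *Slc7a8* had the largest difference of the 28 genes. It encodes LAT2, an exchanger of large and small neutral amino acids. Its scaled log2 signal was -2.65, -3.05 and -2.45 in WT mice and -0.78, -0.98 and -0.92 in KO mice. The lowest KO mouse thus lay far above the highest WT mouse. The WT mean was -2.72 ± 0.31 (SD, n = 3). The KO mean was -0.90 ± 0.10 (SD, n = 3). They differed by 1.82 (SE 0.18, limma adjusted p = 0.0375), or 3.54-fold. The unadjusted p was 2.46e-05 and stayed under 0.05 in 21 of 21 alternatives. The adjusted p ranged from 0.00498 to 0.482 over them and was under 0.05 in 9. Leaving out WT 1, 2 or 3 gave 0.154, 0.0790 and 0.0704, and leaving out KO 1, 2 or 3 gave 0.0585, 0.112 and 0.130. With slide row as a block, which leaves WT 3 alone against the KO mice, the difference was 1.55 (limma unadjusted p = 0.000717, adjusted p = 0.230). The other probe of *Slc7a8* was not above background on any array, so the difference rests on 1 probe.

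*Slc7a7*, which encodes y+LAT1, an exporter of cationic amino acids, was called as upregulated by a narrow margin. Its signal was -1.18, -0.71 and -0.95 in WT mice and -0.77, -0.42 and -0.22 in KO mice, so that KO 1 lay within the WT range. The log2 difference was 0.48 (SE 0.20, limma unadjusted p = 0.0474, adjusted p = 0.260). The call held in 6 of 21 alternatives. It was lost without WT 1 (0.36, unadjusted p = 0.150), WT 3 (0.48, unadjusted p = 0.0956), KO 2 (0.45, unadjusted p = 0.103) or KO 3 (0.35, unadjusted p = 0.142), and with WT 3 alone against the KO mice, the row block (0.48, unadjusted p = 0.174). The macrophage list, whose cells are known to express this carrier, had a mean of 1.08, 1.02 and 1.31 in WT mice and 1.20, 1.60 and 1.29 in KO mice, with all 9 genes above background on all 6 arrays and 1 of 8 tested genes upregulated, and its part in the result was not tested. *Slc7a7* and *Slc7a8* lie on chromosome 14 with 23 annotated genes between them.

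The remaining light chains were not called. *Slc7a6*, which encodes y+LAT2, gave 1.58, 1.71 and 1.90 in WT mice and 1.96, 1.38 and 1.81 in KO mice, a KO minus WT difference of -0.01 (SE 0.19) that changed sign with quantile normalization, to 0.09. *Slc7a10*, the neutral amino acid carrier asc-1 and a surface marker of white adipocytes, gave -1.57, -1.52 and -1.68 in WT mice and -1.62, -0.82 and -0.55 in KO mice. KO 1 was at the level of the WT mice and the other 2 KO mice lay above all of them. The difference was 0.60 (SE 0.27, limma unadjusted p = 0.0668), and 0.91 (unadjusted p = 0.00162) without KO 1. The mean of the white adipocyte list, beside this carrier, ranged from -2.91 to -2.84 in WT mice and from -2.71 to -2.15 in KO mice. In it 6 of 7 genes were above background on all 6 arrays. The other, *Tcf21*, was above background on none, at -8.10, -8.32 and -7.78 in WT mice and -6.78, -7.15 and -7.60 in KO mice. Part of the distance between the group means thus rests on values not above background. Within the list, *Nnat* was higher and *Hoxc8* lower in all KO mice than in all WT mice. The part of this list in the *Slc7a10* result was not tested.

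The cationic amino acid carriers and the orphan members of Slc7a had differences of 0.12 (*Slc7a1*, the main arginine and lysine carrier of many cells), 0.40 (*Slc7a2*), 0.48 (*Slc7a4*) and -0.08 (*Slc7a14*), and none was called. For *Slc7a4*, named after its values were seen, all 3 KO mice lay above all 3 WT mice, at -2.84, -2.66 and -2.74 against -3.77, -3.01 and -2.91. Its unadjusted p from limma was 0.0868, and 0.0435 without WT 3, which left a difference of 0.64. Over the 8 tested Slc7a genes, 6 had a higher mean in KO mice and the median difference was 0.44. Among them only *Slc7a1* and *Slc7a6* lay above the 75th percentile on all 6 arrays. Of the 9388 tested genes outside that band, 39.7% had a lower mean in KO mice and the median was 0.10, so dimmer genes at large leaned the same way. The median of the Slc7a genes varied with the processing. It was 0.26 with quantile normalization and 0.18 with normexp background correction.

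**Figure D3:**
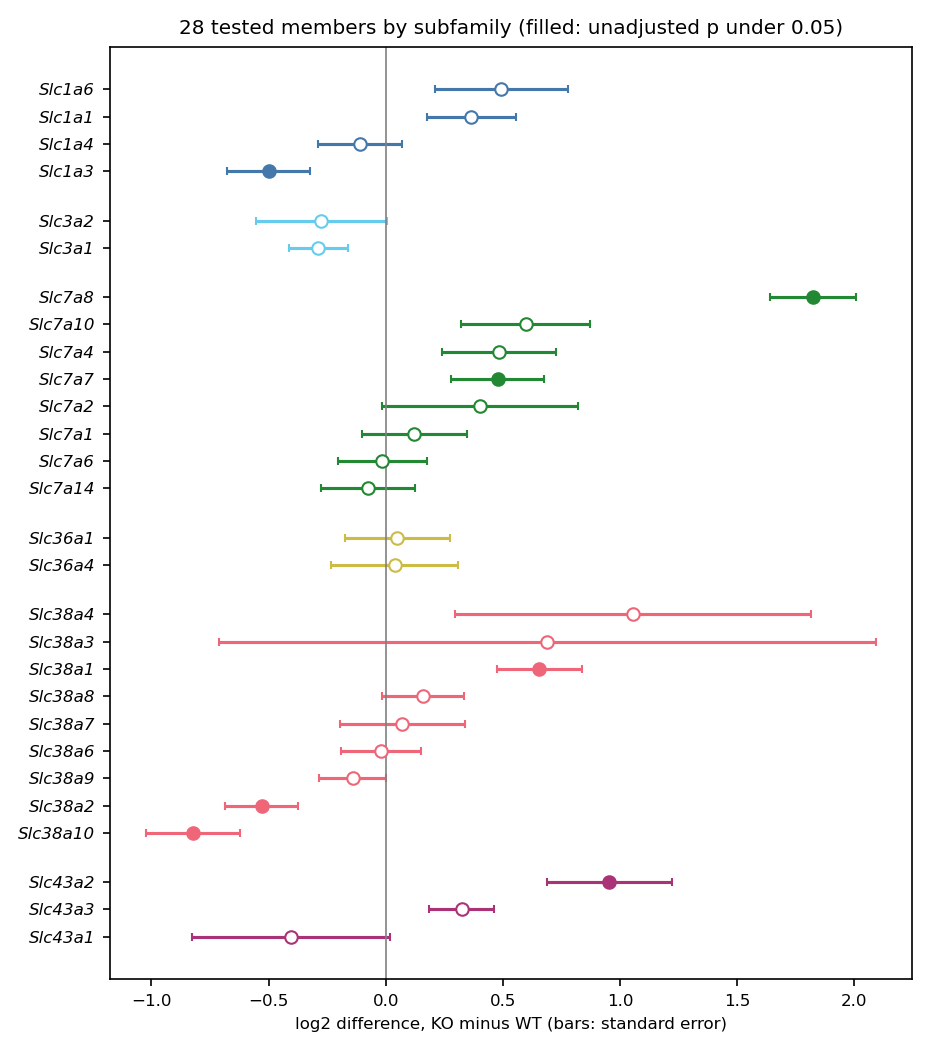
Log2 difference, KO minus WT (horizontal axis), with its standard error for the 28 tested genes, grouped by subfamily (vertical axis). Filled points have an unadjusted p under 0.05 by limma. Of the 8 Slc7a genes 6 lie above 0, while 52.9% of all tested genes lie below 0. The widest bars belong to *Slc38a3* and *Slc38a4*.

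The Slc38a subfamily held called genes of both directions. Of its 11 genes 9 were tested, 2 were downregulated and 1 was upregulated, and the median difference was 0.07. *Slc38a10*, an amino acid carrier described in several tissues, gave 1.68, 2.19 and 1.88 in WT mice and 1.12 (a marked spot, left out), 1.13 and 1.05 in KO mice. All KO values lay below all WT values, marked spot included. The log2 difference was -0.82 (SE 0.20, limma unadjusted p = 0.00628, adjusted p = 0.129). It was measured by 3 probes, and the others gave -1.22 and -0.80. The unadjusted p was under 0.05 in 21 of 21 alternatives, with a difference of -0.78 (unadjusted p = 0.0490) between WT 3 alone and the KO mice, the row block. Without KO 2 or KO 3 another probe stood for the gene, and the difference was -1.28 and -1.17.

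*Slc38a2*, the glutamine carrier SNAT2 that cells raise when amino acids are short, gave 2.06, 1.89 and 1.66 in WT mice and 1.45, 1.35 and 1.23 in KO mice. The highest KO mouse lay below the lowest WT mouse. The log2 difference was -0.53 (SE 0.15, limma unadjusted p = 0.0111, adjusted p = 0.154), and -0.42 (unadjusted p = 0.0299) with quantile normalization. With slide row as a block, WT 3 alone against the KO mice gave -0.32 (unadjusted p = 0.186), which did not pass. Its neighbour on chromosome 15, *Slc38a1*, lies beside it with no protein-coding gene between them, and differed in the opposite direction. *Slc38a1* encodes the glutamine carrier SNAT1 and gave -4.40, -3.96 and -3.93 in WT mice and -3.56, -3.24 and -3.52 in KO mice. All KO values lay above all WT values, and the log2 difference was 0.66 (SE 0.18, limma unadjusted p = 0.00875, adjusted p = 0.142). Another probe of *Slc38a1* gave 0.44 and the third was not above background. The call was lost with the mean of its probes (0.55, unadjusted p = 0.0647) and with WT 3 alone against the KO mice, the row block (0.49, unadjusted p = 0.120).

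*Slc38a9*, a lysosomal carrier that reports arginine to mTORC1, gave -1.22, -1.19 and -0.96 in WT mice and -1.14, -1.32 and -1.33 in KO mice. The difference of -0.14 (SE 0.14, limma unadjusted p = 0.352) did not pass, and the groups overlapped. The differences of *Slc38a6*, *Slc38a7* and *Slc38a8* lay between -0.02 and 0.16.

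*Slc38a3*, *Slc38a4* and *Slc7a2* were looked at after their values were seen, because they varied widely within the groups. *Slc43a1*, described below, varied as much (pooled SD 0.66, against 0.65 for *Slc7a2*) but was not looked at in this way. It gave -2.59, -3.27 and -2.66 in WT mice and -3.89, -2.28 and -3.56 in KO mice, with KO 1 lowest and KO 2 highest. *Slc38a3*, the glutamine carrier SNAT3, gave -3.42, -4.14 and -7.24 in WT mice and -6.45, -1.61 and -4.69 in KO mice, with a pooled SD of 2.25 within the groups, against a median of 0.25 over the tested carriers. Its values put the 6 mice in the same order as the mean of the 20 skeletal muscle genes, from WT 3, the lowest, to KO 2, the highest. Its probe was above background on only 2 WT and 2 KO arrays, so part of this order rests on values not above background. The log2 difference was 0.69 (SE 1.40, limma unadjusted p = 0.639), -0.50 with the mean of the muscle list as a covariate, -0.46 without WT 3 and -0.63 without KO 2. *Slc38a4*, the carrier SNAT4, gave -5.11, -5.29 and -6.75 in WT mice and -6.08, -3.18 and -4.74 in KO mice. WT 3 was again lowest and KO 2 highest. This probe was above background on only 1 WT array and 2 KO arrays. The difference was 1.05 (SE 0.76, limma unadjusted p = 0.208), and 1.76 (unadjusted p = 0.0276) without KO 1, while the other probe gave -0.22. *Slc7a2*, a cationic amino acid carrier, gave -4.19, -4.44 and -4.21 in WT mice and -4.71, -2.91 and -4.00 in KO mice. KO 2 stood apart, and the difference was -0.08 without it and 0.82 (limma unadjusted p = 0.0414) without KO 1. Of the muscle list, 13 of 20 genes were above background on all 6 arrays and none on no array, and the part of muscle RNA in these values was not tested beyond the covariate.

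**Figure D4:**
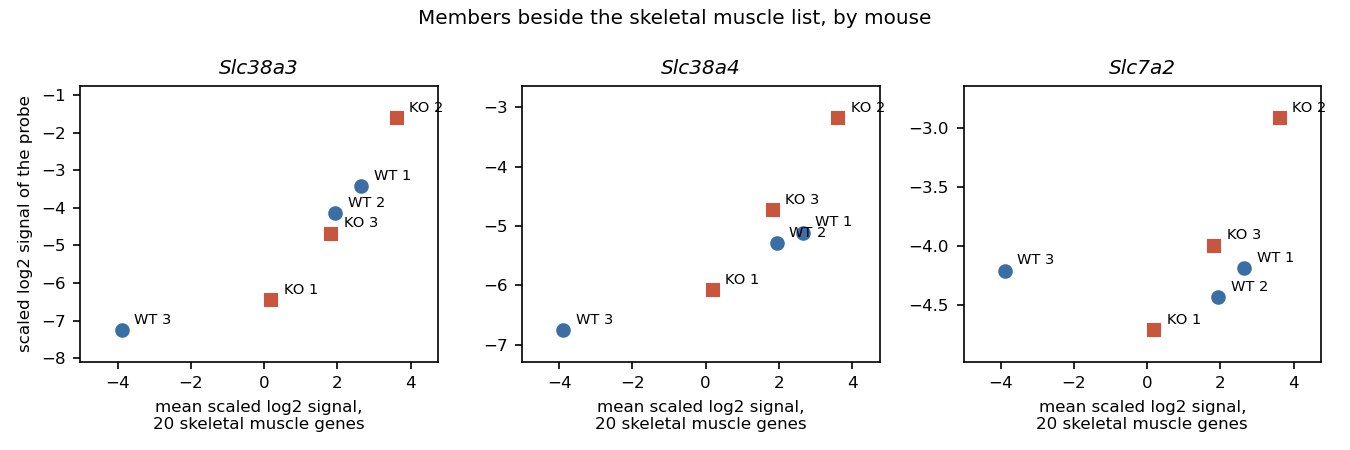
Scaled log2 signal of *Slc38a3*, *Slc38a4* and *Slc7a2* (vertical axes) against the mean of the 20 skeletal muscle genes on the same scale (horizontal axis) for each mouse, WT as circles and KO as squares. *Slc38a3* puts the mice in the same order as the muscle list, from WT 3 to KO 2. Its probe was above background on only 2 WT and 2 KO arrays.

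Among the glutamate and neutral amino acid carriers of Slc1a, *Slc1a3* was downregulated. It encodes the glutamate carrier GLAST, and gave 2.29, 2.59 and 2.23 (a marked spot, left out) in WT mice and 1.83, 1.91 and 2.08 in KO mice. All KO values lay below all WT values, marked spot included, and the log2 difference from 2 WT and 3 KO values was -0.50 (SE 0.18, limma unadjusted p = 0.0299, adjusted p = 0.221). The call was lost without KO 1 (-0.45, unadjusted p = 0.0847), without KO 2 (-0.48, unadjusted p = 0.0653), with no filter on dim probes (-0.50, unadjusted p = 0.0544) and with the muscle list as a covariate (-0.50, unadjusted p = 0.0508). It could not be fitted without WT 1, without WT 2 or with slide row as a block. GLAST is known from glia, and the mean of the 7 nerve and Schwann cell genes was -0.31, -0.36 and -0.96 in WT mice and -0.88, -0.55 and -0.89 in KO mice, with 6 of 7 above background on all 6 arrays, and its part in the result was not tested. The other tested members, *Slc1a1* (0.37), *Slc1a4* (-0.11) and *Slc1a6* (0.49), were not called, and *Slc1a6* was above background on 3 of the 6 arrays. *Slc1a5* encodes ASCT2, an exchanger known for glutamine uptake, and its spot was marked on all 6 arrays. With marked spots kept it gave 2.72, 2.51 and 3.09 in WT mice and 2.96, 2.95 and 2.74 in KO mice, a KO minus WT difference of 0.11 (SE 0.18, limma unadjusted p = 0.570).

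*Slc36a2*, a proton-coupled carrier of glycine, alanine and proline used as a surface marker of brown and beige adipocytes, could be compared only with marked spots kept, since WT 2 and WT 3 were marked. It gave 4.28, 4.44 and 4.24 in WT mice and 3.82, 3.74 and 4.13 in KO mice. All KO values lay below all WT values, and the difference was -0.43 (SE 0.15, limma unadjusted p = 0.0273, adjusted p = 0.197). Keeping the marked spots gave 31 tested genes of the set, of which 4 were downregulated and 5 upregulated, against 11.1% and 9.47% of 16110 genes. *Slc7a8* again alone passed the adjusted threshold, against 0.329% of genes higher and 0.143% lower. *Slc7a6os*, marked on all 6 arrays and no known carrier, then gave 0.57, 0.69 and 0.64 in WT mice and 1.32, 0.78 and 0.96 in KO mice (0.39, unadjusted p = 0.0543). When quantile normalization was added, a setting chosen with the data in view, the difference of *Slc36a2* was -0.19 (unadjusted p = 0.102). *Slc36a1*, the lysosomal member of this subfamily, had 2 unmarked values in each group and a difference of 0.05 (SE 0.22), and *Slc36a4* had 0.04.

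In Slc43a, which holds carriers of large neutral amino acids, *Slc43a2* was upregulated. It encodes LAT4, and gave -1.56, -1.17 and -1.02 in WT mice and -0.08, -0.84 and 0.02 in KO mice. KO 2 lay closest to the WT mice, and still above all of them. The log2 difference was 0.95 (SE 0.27, limma unadjusted p = 0.00942, adjusted p = 0.146), or 1.94-fold. Its other probe gave 0.20 (unadjusted p = 0.582), and the mean of both gave 0.64 (unadjusted p = 0.0776). With slide row as a block, WT 3 alone against the KO mice gave 0.72 (unadjusted p = 0.114). *Slc43a2* is a neighbour of *Mir22* on chromosome 11, with 4 protein-coding genes between them. *Mir22hg* also lay higher in all KO mice than in all WT mice, and its difference was 0.75 (SE 0.18, limma adjusted p = 0.108), and the part of the altered locus in either value was not tested.

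*Slc43a3*, known as a purine base carrier rather than an amino acid carrier and named after its values were seen, gave 1.57, 1.72 and 1.72 in WT mice and 1.89, 1.94 and 2.15 in KO mice. All KO values lay above all WT values. The difference was 0.32 (SE 0.14, limma unadjusted p = 0.0514), and 0.43 (unadjusted p = 0.00475) with quantile normalization. *Slc43a1*, which encodes LAT3 and lies with 1 gene between on chromosome 2, gave -0.40 (SE 0.42) on its brightest probe and 0.15 on the other. Of the 9 carriers with more than 1 testable probe, 5 had probes that all differed in the same direction.

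Differences followed the signal of the probe, in the carriers and in all genes. Of the 8 tested carriers above the 75th percentile on all 6 arrays, 6 had a KO mean below the WT mean, with a median of -0.19, and 3 were downregulated by the unadjusted p of limma, with 0 upregulated. Of the 5323 genes in that band, 76.1% had a lower mean, the median was -0.18, and 12.0% were downregulated and 2.57% upregulated. Of the other 20 carriers, 5 had a lower mean, the median was 0.38, and none was downregulated and 4 upregulated. For the other 9388 genes the median was 0.10, with 39.7% lower, 7.02% downregulated and 14.3% upregulated. The median of the bright carriers was thus that of bright genes at large, and the median of the dimmer carriers was higher than that of dimmer genes at large, without a test. With quantile normalization, 3 of the 8 bright carriers had a lower mean and their median was 0.09, against -0.05 for all genes of the band, and the other carriers had a median of 0.22 against -0.02. The direction of the bright carriers as a group therefore depended on the scaling between arrays. *Slc38a10*, *Slc38a2* and *Slc1a3* remained downregulated with quantile normalization, at -0.73, -0.42 and -0.34, and *Slc3a1*, not called above, came under the same threshold.

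**Figure D5:**
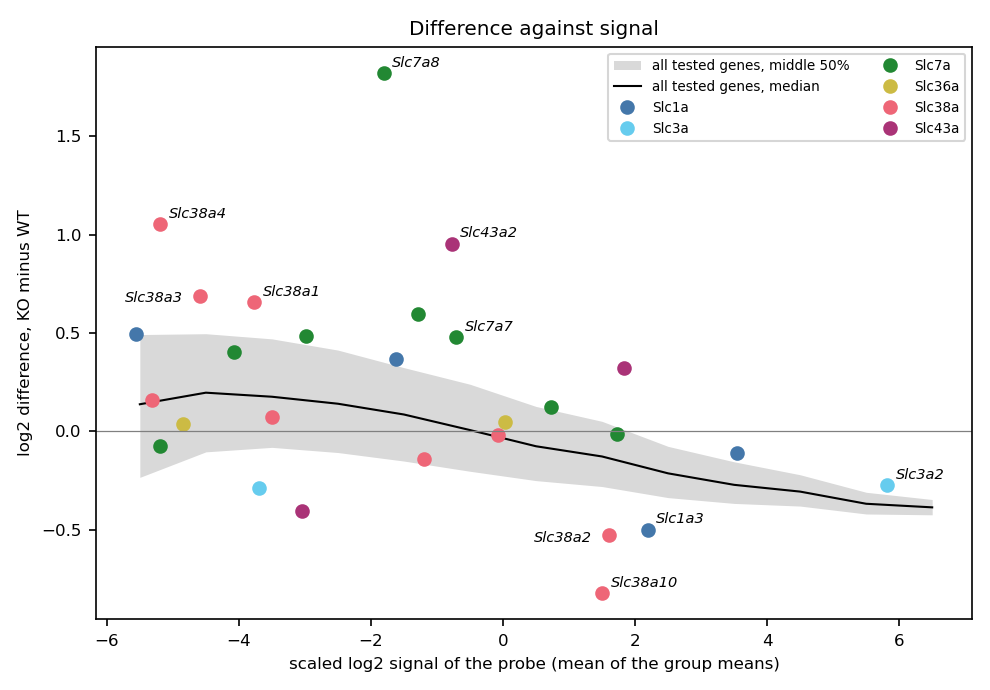
Log2 difference, KO minus WT (vertical axis), against the scaled log2 signal of the probe (horizontal axis) for the 28 tested carriers, with the median (line) and the middle 50% (grey band) over all tested genes in steps of 1 unit of signal. The median over all genes falls from 0.20 among dim probes to -0.37 in the brightest step that holds over 20 genes, and the 7 called genes lie outside the grey band.

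Other genes of amino acid handling were taken from fixed lists, whose counts stand against 8.82% of all genes downregulated and 10.0% upregulated. Of 14 genes listed as other carriers of the plasma membrane, not all of which need act there, 8 were tested. Of these 1 was downregulated and none upregulated, with a median of -0.08. The downregulated gene was *Slc15a2*, the peptide carrier PEPT2, at -0.63, -0.26 and -0.35 in WT mice and -2.93, -1.41 and -2.24 in KO mice. All KO values lay well below the WT values, with a difference of -1.78 (SE 0.36, limma adjusted p = 0.0852). *Slc6a20a*, a carrier of proline and other imino acids, had a difference of 0.53 (unadjusted p = 0.0523). The 5 lysosomal amino acid and peptide carriers were all tested, with a median of -0.15. *Slc15a3*, a lysosomal carrier of peptides and histidine, was upregulated, from -4.26, -4.16 and -4.06 in WT mice to -3.50, -3.39 and -3.37 in KO mice, a KO minus WT difference of 0.74 (SE 0.13, limma adjusted p = 0.0716). Its relative *Slc15a4* had -0.26 (unadjusted p = 0.100). The part of the macrophage list, given above, in the *Slc15a3* value was not tested either.

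Of the 31 genes of amino acid sensing toward mTORC1, 23 were tested, 4 were downregulated and 2 upregulated, with a median of -0.14. All unmarked values of the 4 downregulated genes lay above the 75th percentile of their array, the band in which 12.0% of all genes were downregulated. So did those of *Lamtor3*, *Fnip2*, *Mtor*, *Sec13*, *Lars*, *Castor2* and *Mlst8*, which were not called. The remaining tested genes of the list lay lower on at least 1 array, so 4 of 23 cannot be set against 12.0%. *Lamtor1*, which anchors the Ragulator complex on the lysosome, gave 3.52, 3.79 and 3.68 in WT mice and 3.02, 2.95 and 3.20 in KO mice, a KO minus WT difference of -0.60 (SE 0.14, limma adjusted p = 0.111). *Lamtor4*, *Rragc* and *Fnip1*, other parts of the machinery around the Rag GTPases, were the remaining downregulated genes, at -0.55, -0.37 and -0.49. *Sesn3*, of the sestrin family of mTORC1 inhibitors, had a difference of 0.49 (SE 0.13, limma adjusted p = 0.141), and 0.35 (unadjusted p = 0.137) with WT 3 alone against the KO mice. *Rragd* was at 0.81. *Rragc*, *Rragd*, *Fnip1* and *Lamtor4*, and the uncalled genes of the bright band, were named after their values were seen. All 16 genes of the list for the amino acid response through Atf4 were tested, with a median of 0.00. The list also holds *Atf4* itself and *Eif2ak4*, which encodes the kinase Gcn2 upstream of it. *Psph*, the last enzyme of serine synthesis, was downregulated, from 1.96, 2.47 and 2.23 in WT mice to 1.41, 1.24 and 1.31 in KO mice (-0.90, SE 0.17, limma adjusted p = 0.0743). No other gene of the list was called, and *Cth*, which makes cysteine, had a difference of 0.83 (unadjusted p = 0.117). *Atf4* itself was at -0.19 and *Asns*, asparagine synthetase, at 0.00.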

How the data were processed

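Expression in the BAT of 6 mice, 3 WT and 3 miR-22 KO, was measured on 6 Agilent arrays. Per the file headers, the authors deposited intensity values from Agilent Feature Extraction 11.5.1.1 (10.7 in the submitters' processing notes), in which the processed signal is background-subtracted and detrended but not scaled between arrays. They also deposited log2 values of 27497 probes. How these were scaled and centred is not given in the sources used here; the columns of that table have the same maximum and medians of 8.82 to 8.85, and it served as an alternative only. The members and lists were chosen with earlier results of these data known.

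Signals were divided by the 75th percentile of the array and taken as log2, without control and marked spots. The test took probes that exceeded background on 3 or more arrays with at least 2 unmarked values per group. Of 56605 probes, 33767 were matched to RefSeq genes (names from GRCm38.p6; the array annotation is mm9), and the brightest testable probe stood for its gene. Groups were compared, unpaired, with lmFit and eBayes of limma 3.58.1 (R 4.3.3, the data.table package 1.17.8), two-sided, at 0.05 on the unadjusted p, the threshold of the study's methods, and after Benjamini-Hochberg adjustment over 14711 genes. Each array is 1 mouse, and 3 arrays per group limit the precision. The tests were tried on simulated data with known shifts first.

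Genes were named by rule: those called; in each subfamily the gene above background on all 6 arrays with the largest difference; *Slc3a1*, *Slc3a2* and the light chains *Slc7a5* to *Slc7a11*; *Slc36a1*, *Slc36a2*, *Slc1a5*, *Slc38a2* and *Slc38a9*; and the 2 smallest p of each other list. Further members are named to account for all of them, with their values seen. Alternatives were quantile normalization, the median of detected probes, normexp on the median spot signal (offset 50), the processed values of the authors, marked spots kept, other filters on dim probes, the mean of a gene's probes on arrays where none was marked, SAM (the test of the study), the t-test of its methods, a robust eBayes with trend, slide row as a block, the row with both groups alone, the skeletal muscle list as a covariate, and each array left out. Matches to the miR-22 seed in transcripts were not analysed here.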

Additional observations from a re-analysis of the deposited data

How the results depend on the processing

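No paired analysis was possible because the mouse numbers in the labels are not shared between the groups. Of the 28 tested carriers, 3 were downregulated, 4 upregulated and the median log2 difference was 0.10. The number upregulated was 7 of 41 with no filter on dim probes (7.85% of all genes in that setting) and 2 of 28 with the mean of a gene's probes (10.6%). With slide row as a block and within the row that holds both groups, WT 3 is the only WT mouse compared, so these fits, which assume that it varies like the others, give no separate check of the row. In them 1 of 26 was upregulated (6.29% and 5.57% of all genes) and 1 downregulated (2.41% and 1.99%). When an array was left out, 3 to 7 were upregulated (8.34 to 9.76%) and 2 to 3 downregulated (5.60 to 10.3%). The median was 0.015 with normexp, 0.32 with no filter on dim probes, 0.30 with the row as a block and within that row, and 0.037 to 0.31 when an array was left out, the highest without WT 2. These medians stand without that of all genes in the same setting, so they do not show a shift of the carriers alone. With no filter, probes not above background also enter. In the fit above, 4 carriers upregulated and 3 downregulated passed the unadjusted threshold by limma, and *Slc7a8* passed the adjusted one. By limma, no carrier passed the adjusted threshold with quantile normalization, with no filter on dim probes or without any 1 array. None passed it with SAM or the methods' t-test. SAM found none of the shifted genes of simulated data at that threshold, so its failure to pass says nothing about stability. The t-test found 24.5% of them and limma 59.5%, for a log2 shift of 1.5, so the t-test often misses a shift of that size. *Slc3a2* reversed to 0.090 with quantile normalization, with or without marked spots, and to 0.085 with the authors' processed values. *Slc7a6* reversed to 0.095 and 0.093 in the same settings, to 0.094 with the muscle list as a covariate and to 0.056 with the mean of its probes, and ran from -0.14 to 0.16 when an array was left out, above 0 without WT 3 or KO 2. *Slc38a3* reversed to -0.50 with the muscle list as a covariate and ran from -0.63 to 1.79 when an array was left out, below 0 without WT 3 or KO 2. *Slc7a2* ran from -0.078, without KO 2, to 0.82. The causes were not tested. Over the 26 genes followed through the alternatives, which are not all the genes named above, 463 values kept their direction and side of the threshold, 29 lost the call, 23 gained it and 14 reversed. The median of Slc1a moved to -0.11 with the filter of all 6 arrays and that of Slc38a to -0.10 with the authors' processed values. Dim probes limit what can be said of 13 genes of the set.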
